A study of Mus musculus with 44 samples.

Results

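Back skin of mice injected with bleomycin for 4 weeks was compared with back skin of mice injected with saline. The members were the 10 mice whose titles give 4 weeks of bleomycin and the 10 whose titles give saline, 20 of the 44 mice in the series, and the 17037 genes with a mean normalized count above 3 over the 44 mice were tested. The mice were wild type C57Bl/6 females, 8 weeks old at the start, and bleomycin was injected daily under the skin of the back, in 100 µL at 1 U/mL as the labels give it. The study's supplementary text gives a lower concentration, and the difference could not be settled. The other groups, 10 mice given bleomycin for 2 weeks 6 mice left for 6 weeks after the end of a 4-week course and 8 left for 10 weeks, are used below where the 4-week mice were set against them. Poly(A) RNA of a part of each biopsy was sequenced with a strand-specific kit. The age at which the saline mice were harvested was not given in the sources used here, so effects of age, injection time and bleomycin cannot be told apart where the harvests differed.

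Bleomycin is a glycopeptide that cuts DNA, and its repeated injection into mouse skin is a widely used model of the fibrosis of systemic sclerosis, in which immune cells enter the dermis and fibroblasts thicken it with collagen. Full-thickness back skin of the mouse holds epidermis, hair follicles that grow and rest in cycles, sebaceous glands, dermal fibroblasts, a fat layer, a thin sheet of skeletal muscle, vessels and nerves. In such bulk samples fewer cells of a type and less RNA per cell cannot be told apart.

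The deposited values were read counts divided by a size factor of each mouse, called normalized counts here, and whole reads could be recovered from them. The recovered reads of the 20 mice ranged from 8509094 to 13902575, with a median of 9523976 for saline and 12255521 at 4 weeks. Between 19030 and 19586 genes had at least 1 read in a saline mouse and between 19716 and 20866 at 4 weeks, so the groups did not overlap in this count. Saline mouse 1 stood apart from its group: its median correlation with the other saline mice was 0.942, and that of saline mouse 6 was 0.949, against 0.961 or more in the other saline mice and 0.965 or more at 4 weeks. Without saline mouse 1 the number of differentially expressed genes was 2831, and after thinning all mice to the same number of reads it was 2971.

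With all mice, 3053 genes (17.9% of those tested) were called in limma, that is, changed more than 1.5 times in either direction with a Benjamini-Hochberg adjusted p under 0.05, 10.5% higher and 7.37% lower at 4 weeks. These shares are the background for each gene list below. The 10 values of one group lay entirely above or below the 10 of the other in 6.52% of genes, 4.31% higher and 2.21% lower at 4 weeks, and in 5.27% the gene was also called. Of the genes called, 237 differed by more than 2 on the log2 scale upward and 229 downward, so large falls were about as many as large rises. The saline mice varied more among themselves: the median standard deviation of a gene was 0.289 on the log2 scale with saline and 0.219 at 4 weeks, and 176 genes with saline but 47 at 4 weeks had one above 2. The 49 lists of genes by pathway and cell type held 902 different tested genes, of which 298 were higher and 181 lower at 4 weeks.

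**Figure D1:**
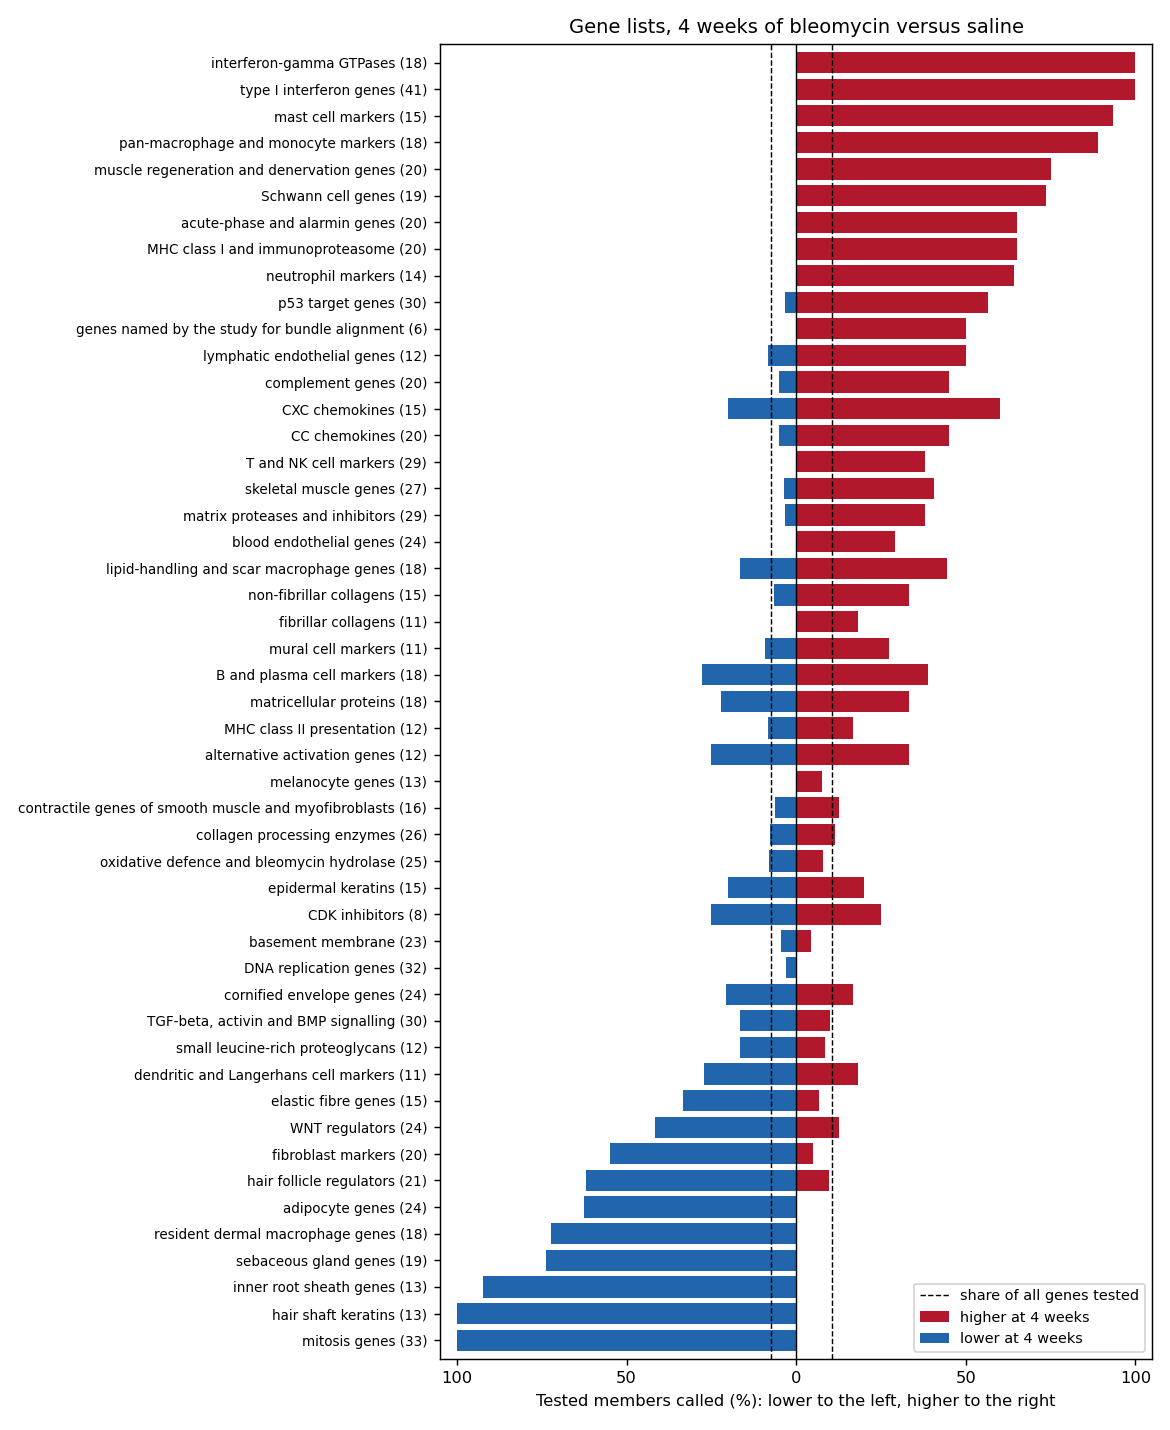
Percentage of the tested members of each of the 49 gene lists that were called higher (red, to the right) or lower (blue, to the left) at 4 weeks than with saline, with the number tested beside each name. The dashed lines are the shares of all 17037 genes, 10.5% higher and 7.37% lower. Type I interferon genes (genes of the response to interferon) and interferon-gamma GTPases reach 100% higher, and mitosis genes and hair shaft keratins reach 100% lower.

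In what follows, 3 numbers given for a group are the lowest, the median and the highest normalized count of its 10 mice. A log2 difference is 4 weeks minus saline on the log2(normalized count + 1) scale with its standard error, and adjusted p-values are those of limma over all 17037 genes. Among the genes whose groups did not overlap, the largest rise was that of Saa3 (chr7:46711998-46715700 in GRCm38), an acute-phase apolipoprotein made in inflamed tissue. Saa3 counts were 1.15, 3.57 and 5.63 with saline and 75.8, 409 and 2317 at 4 weeks, a log2 difference of 6.45 ± 0.58 (adjusted p = 2.7e-12). The lowest 4-week mouse was therefore still more than 10 times above the highest saline mouse, while the 4-week mice themselves spread over more than 1 order of magnitude. Chil3, a chitinase-like protein of myeloid cells, rose by 5.57 ± 0.34, from 0, 2.5 and 8.29 to 43.5, 148 and 317. Of the next rises, Slfn4 (4.88 ± 0.23), Clec4e (4.67 ± 0.33), Acod1 (4.63 ± 0.42) and Ly6c2 (4.40 ± 0.22) are genes of monocytes and activated macrophages; Clec4e is a receptor for damaged cells and Acod1 makes itaconate. Krt6b (5.10 ± 0.64), a keratin of stressed epidermis, Tnnc1 (5.22 ± 0.56), the slow-muscle troponin C, and Ankrd1 (4.49 ± 0.32), a stress-responsive protein of muscle and mesenchymal cells, belong to other tissue layers. The remaining rise was that of the predicted gene Gm4841 (4.70 ± 0.37).

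Among the genes whose groups did not overlap, the largest fall was that of Cyp2g1. Cyp2g1, a cytochrome P450 grouped here with sebaceous gland genes, went from 2367, 5060 and 7527 with saline to 20.3, 67.0 and 541 at 4 weeks, a log2 difference of -5.99 ± 0.44 (adjusted p = 9.3e-15). Retnla, a secreted product of alternatively activated macrophages and fat, fell from 1576, 3444 and 7518 to 49.5, 123 and 359, by -4.77 ± 0.34. Akr1c18, a steroid-converting reductase, fell from 670.1, 1391 and 1851 to 39.3, 89.6 and 141, with the smallest error of the group (-4.0 ± 0.20). Inmt, a methyltransferase of small amines, differed by -4.52 ± 0.45, and Pi16, a marker of fibroblasts of the adventitia and fascia, by -2.99 ± 0.23. Nnat (-3.20 ± 0.45), a small membrane proteolipid, Tagln3 (-3.22 ± 0.52), a calponin-family protein, and the less characterised 9430007A20Rik (-3.72 ± 0.35), Gm11596 (-5.22 ± 0.77) and Gm10100 (-3.16 ± 0.66) completed the group. Several of these low counts lie near a few reads, where the log2(normalized count + 1) scale understates the change.

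**Figure D2:**
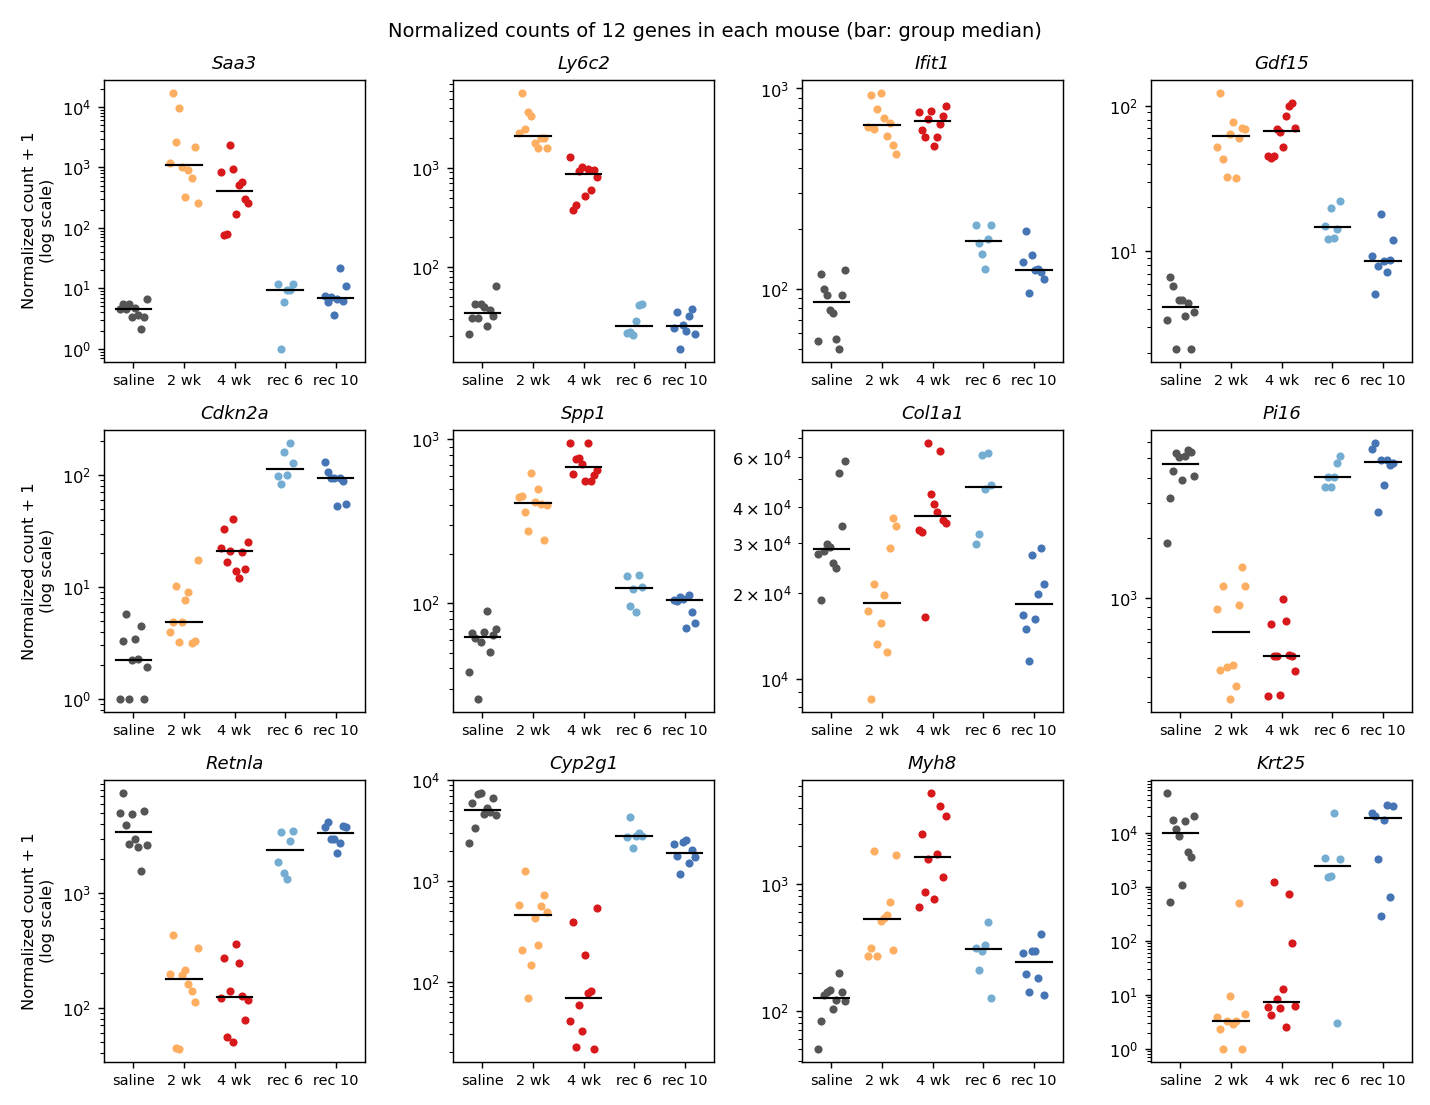
Normalized counts (log scale, plotted as count + 1) of 12 genes in every mouse of the 5 groups, with a bar at each group median. The 4-week and saline mice do not overlap for Saa3, Ly6c2, Ifit1, Gdf15, Cdkn2a, Spp1, Pi16, Retnla, Cyp2g1 and Myh8, and overlap for Col1a1 and Krt25. Cdkn2a is highest in the 2 recovery groups.

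The extracellular matrix was examined first, since collagen deposition defines the model. The mRNAs of the main dermal collagens did not pass the test at 4 weeks. Col1a1, which encodes a chain of type I collagen, was at 18893, 28540 and 57983 with saline and 16440, 37216 and 67224 at 4 weeks, a log2 difference of 0.30 ± 0.24 (adjusted p = 0.33). Col1a2 differed by 0.18 ± 0.23 (adjusted p = 0.57), and Col3a1, the type III chain with the highest mean count of the list over the 44 mice, by -0.02 ± 0.22 (adjusted p = 0.96). In each of these the ranges of the 2 groups overlapped almost completely, and 4-week mouse 3 was lowest of its group. Of the 11 fibrillar collagens, 2 were higher and 0 lower, with a median log2 difference of 0.18. Those 2 are collagens of low level here: Col2a1, best known from cartilage, was at 0, 3.54 and 5.96 with saline and 13.6, 26.2 and 40.1 at 4 weeks (3.14 ± 0.32, adjusted p = 1.3e-10), and Col24a1, a fibrillar collagen best known from bone, differed by 0.79 ± 0.16.

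Set directly against the mice given bleomycin for 2 weeks, the 4-week mice had more of the same type I collagen mRNAs. Col1a1 was higher by 1.01 ± 0.24 (adjusted p = 0.0076) and Col1a2 by 0.93 ± 0.23 (adjusted p = 0.012), from 2-week medians of 18491 and 21705. In that comparison 5 of the 11 fibrillar and 7 of the 15 non-fibrillar collagens were higher and none lower, where 1.49% of all genes were higher. The 2-week median of Col1a1 lay below that of saline (28540) and the 4-week median (37216) above it, so the comparison with saline and the comparison in time gave different answers for this gene.

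**Figure D3:**
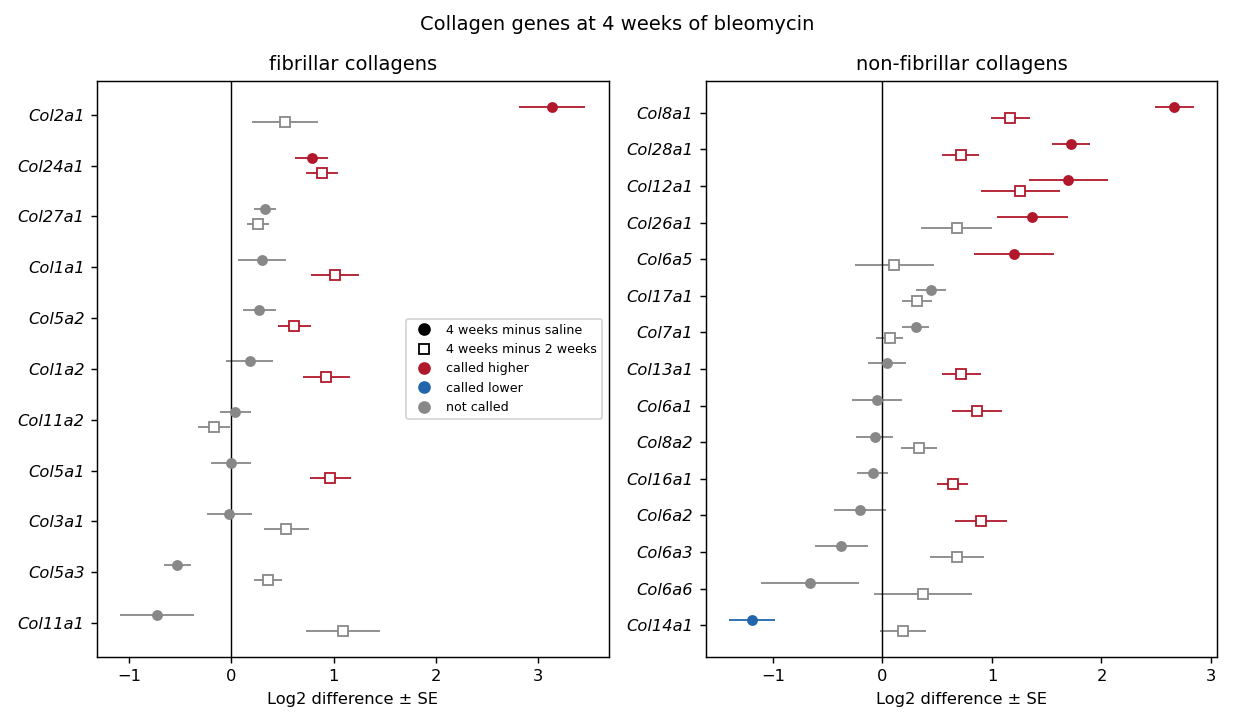
Log2 differences with standard errors for 11 fibrillar and 15 non-fibrillar collagens, 4 weeks minus saline (filled) and 4 weeks minus 2 weeks of bleomycin (open). Filled points for Col1a1, Col1a2 and Col3a1 lie near 0, and Col8a1 and Col2a1 lie farthest to the right. Called differences are drawn in colour.

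Among the 15 non-fibrillar collagens 5 were higher and 1 lower, with a median of 0.04. Col8a1, a short-chain collagen of vessel walls and of remodelling tissue, rose from 63.0, 82.2 and 119.7 to 331, 544 and 1036 (2.67 ± 0.18, adjusted p = 5.6e-16), and its groups did not overlap. Col28a1, a collagen known from peripheral nerve, rose from 30.3, 68.5 and 88.8 to 136, 201 and 334 (1.72 ± 0.17). Col12a1, which bridges collagen fibrils under load, differed by 1.70 ± 0.36 and Col26a1 by 1.37 ± 0.32. Col14a1, another fibril-associated collagen and a fibroblast marker, moved the other way, from 716, 885 and 1362 to 204, 425 and 522 (-1.19 ± 0.21, adjusted p = 1.2e-05).

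Of the enzymes that process collagen, 3 of 26 were higher and 2 lower. Lox, the lysyl oxidase that cross-links collagen and elastin, rose from 396, 610.5 and 738 to 988, 1201 and 1644, a log2 difference of 1.02 ± 0.13 (adjusted p = 4.6e-08). Its paralog Loxl1, known for its part in elastic fibres, was lower by -0.82 ± 0.18, and Pcolce2, an enhancer of procollagen cleavage, by -1.03 ± 0.18. P4ha3, a subunit of the enzyme that hydroxylates proline in procollagen, was higher by 1.76 ± 0.31, whereas P4hb, the abundant common subunit, was at 4507, 5259 and 5683 and 4835, 5269 and 5678 in the 2 groups (0.01 ± 0.05). Basement membrane genes were mostly not called (8.7% called against 17.9% of all genes). Of 23, 1 was higher and 1 lower, and 3 were lower without saline mouse 1. Nid1, the linker between laminin and collagen IV, was lower by -0.69 ± 0.13 with groups that did not overlap, and Col4a1 differed by -0.07 ± 0.20 (adjusted p = 0.82).

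Elastic fibre genes went down more often than up: 5 of 15 were lower and 1 higher, with a median of -0.36. Mfap4, a microfibril-associated glycoprotein, fell from 2171, 3520 and 4676 to 411, 1191 and 1765 (-1.56 ± 0.28, adjusted p = 2.2e-05). Eln, elastin itself, was lower by -1.04 ± 0.21, Fbn1, the main microfibril protein, by -0.66 ± 0.19, and Mfap5 by -0.78 ± 0.14. Ltbp2, a fibrillin-binding protein, was the exception and rose by 1.37 ± 0.23. Of the 12 small leucine-rich proteoglycans, which coat collagen fibrils, 2 were lower and 1 higher. Dcn, decorin, was at 12401, 25314 and 30022 with saline and 12256, 15878 and 23108 at 4 weeks, and its difference of -0.55 ± 0.14 was short of the fold criterion. It passed the criterion without saline mouse 1, and also without 4-week mouse 2, 3 or 6.

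Secreted regulators of the matrix were taken next. Of 18 matricellular proteins 6 were higher and 4 lower, and of 29 matrix proteases and inhibitors 11 were higher and 1 lower. Spp1, osteopontin, a secreted protein of macrophages in scars, rose from 25.1, 61.7 and 88.9 to 554, 678 and 954 (3.64 ± 0.16, adjusted p = 2.4e-21). Serpine2, a secreted protease inhibitor, rose by 1.94 ± 0.10, and Timp1, an inhibitor of metalloproteases, by 2.38 ± 0.23. For all 3 of these genes every 4-week mouse lay above every saline mouse. The metalloproteases of macrophages and neutrophils rose too, Mmp12 by 1.83 ± 0.31 and Mmp8 by 3.19 ± 0.32, as did Mmp10, known from epidermal wounds, by 2.19 ± 0.38. Ccn2, also named connective tissue growth factor, rose by 1.16 ± 0.14, from 394, 532 and 742 to 670, 1331 and 1890, and Ccn1 by 1.05 ± 0.13. Thbs4 and Thbs3, thrombospondins that bind matrix and cells, were lower, Thbs4 by -1.62 ± 0.20 and Thbs3 by -1.33 ± 0.13, and the groups of Thbs3 did not overlap. Sparc, the matricellular gene with the highest mean count, differed by 0.31 ± 0.20 (adjusted p = 0.24).

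Fibroblast markers were lower as a group at 4 weeks. Of 20 tested, 11 were lower and 1 higher, with a median of -0.69, and the mean level of the list was lower in each of the 10 4-week mice than in any saline mouse. Pdgfra, the receptor that defines dermal fibroblasts, went from 856, 1425 and 1481 to 547, 586 and 795 (-1.08 ± 0.12, adjusted p = 1.4e-09). Pi16 fell from 1887, 4689 and 5475 to 323, 510.2 and 980.5, and Clec3b, tetranectin, from 1407, 2401 and 3079 to 265, 401 and 703. Both mark fibroblasts of the deep dermis and fascia in mouse skin. Dpt, dermatopontin, which binds decorin and collagen, was lower by -1.46 ± 0.13, and Gsn, an actin-severing protein abundant in fibroblasts, by -1.19 ± 0.13. Ly6a, also known as Sca-1, was the member that rose, from 2121, 2631 and 3470 to 3807, 4144 and 4609, by 0.65 ± 0.12; it is also expressed by endothelial and immune cells.

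Contractile genes of smooth muscle and myofibroblasts were called about as often as all genes, 18.75% against 17.9%. Acta2, smooth muscle actin and the usual marker of myofibroblasts, was at 1656, 2842 and 3139 with saline and 2643, 3488 and 4437 at 4 weeks (0.34 ± 0.14, adjusted p = 0.054). Tagln differed by 0.31 ± 0.11 and Myh11, smooth muscle myosin, by 0.49 ± 0.23, neither past both criteria. Of the 16 members 2 were higher, Des and Synpo2, which are also genes of striated muscle, and 1 lower, Itga11, a collagen receptor of fibroblasts (-0.70 ± 0.21). The call of Synpo2 was lost without saline mouse 1 and without 4-week mouse 5.

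Transforming growth factor beta is the best known inducer of collagen in fibroblasts, and its pathway was examined with those of activin and bone morphogenetic protein. Of 30 members 3 were higher and 5 lower. The ligand gene Tgfb1 was at 278, 396 and 526 and 251, 547 and 839.7 (0.29 ± 0.19, adjusted p = 0.23), and the receptor gene Tgfbr2 differed by -0.32 ± 0.13, short of the fold criterion. Gdf15, a distant member of the family induced by tissue stress, rose from 1.14, 3.13 and 5.71 to 42.7, 66.5 and 103 (4.06 ± 0.23, adjusted p = 2.3e-18). The secreted antagonists Nog and Fst, which bind bone morphogenetic proteins and activins, rose by 1.14 ± 0.17 and 0.90 ± 0.12. Smad6, an inhibitory Smad, and Bambi, a pseudoreceptor, were lower by -1.20 ± 0.22 and -1.59 ± 0.38. Saline counts of Bambi spanned 44.5, 179 and 1091, a spread shared with the hair follicle genes described below.

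WNT regulators moved downward more often than upward, with 10 of 24 lower and 3 higher. Sfrp4, a secreted WNT antagonist, fell from 121, 170 and 283 to 10.2, 34.0 and 71.6 (-2.60 ± 0.28, adjusted p = 3.1e-10). Sfrp1 was lower by -1.11 ± 0.14, and the ligands Wnt5a and Wnt10b by -1.35 ± 0.18 and -1.95 ± 0.25. The groups of these 4 genes did not overlap. Lef1, a transcription factor of WNT signalling in the follicle, was lower by -1.64 ± 0.40 with groups that overlapped. Wnt10b and Lef1 are also counted among the follicle regulators below. Among saline mice the mean log2 level of the WNT list was highest in mouse 1 (7.39) and lowest in mouse 2 (6.70). The same mice had the highest and lowest inner root sheath levels (13.1 and 6.77). The part of hair growth in the WNT result was not tested. In the mice with 6 weeks of recovery Sfrp4 was far above the 4-week level, by 4.62 ± 0.32 (adjusted p = 7.2e-15), with a median of 688 against 34.0 at 4 weeks and 170 with saline.

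Genes of the response to interferon, called interferon genes here, were higher at 4 weeks without exception among the tested members of 2 lists. No values are given here for the genes of the interferons themselves. Interferons are cytokines of the antiviral response: type I interferons act through the factor complex that binds the interferon-stimulated response element (ISRE), and interferon gamma through a factor that binds the gamma-activated site (GAS). Each of the 41 type I interferon genes tested was higher at 4 weeks, with a median log2 difference of 1.92 and groups that did not overlap for 37 of them. Each of the 18 GTPases induced by interferon gamma was higher, with a median of 1.37 and 9 without overlap. Ifit1, which binds foreign RNA, rose from 49.3, 84.8 and 124 to 513, 686 and 819.7 (3.04 ± 0.15, adjusted p = 1.6e-20), and Ifit3 by 3.01 ± 0.16. Oas3, a sensor of double-stranded RNA, rose by 3.07 ± 0.23, and Irf7, the transcription factor that amplifies interferon production, from 164, 293 and 608 to 1520, 2586 and 3385 (2.97 ± 0.19). Isg15, a ubiquitin-like modifier, rose by 2.71 ± 0.17. Ifi27l2a, the member with the highest mean count, rose by 1.04 ± 0.18. Of the GTPases, Irgm1 rose from 150.2, 307 and 397 to 711, 892 and 1139 (1.64 ± 0.12, adjusted p = 1.6e-14), Gbp10 by 2.62 ± 0.37, Gvin1 by 1.64 ± 0.28 and Gbp2, with the highest mean count over the 44 mice, by 0.71 ± 0.13. Guanylate-binding proteins and Gvin1 belong to families of near-identical genes, so reads may be shared between copies.

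The promoters of 6 interferon and mitosis genes are shown, as the 120 bases before the RefSeq transcription start in GRCm38.p6. They were picked because their windows hold a match to a motif that was searched for. Capitals mark the match in interferon genes, ISRE (2 copies of GAAA with any 2 bases between them, or the reverse complement) for the first 3 and GAS (TTCNNNGAA) for Gbp5, and the cell cycle homology region (CHR: TTTGAA or its reverse complement, or the palindrome TTCGAA) in the mitosis genes Cdk1 and Cdc20. The Isg15 capitals are 3 overlapping ISRE matches. Matches to the other motifs are left in lower case, such as a GAS match shortly before the capitals of Tgtp2.
Ifit1, chr19:34640769-34640888, plus strand: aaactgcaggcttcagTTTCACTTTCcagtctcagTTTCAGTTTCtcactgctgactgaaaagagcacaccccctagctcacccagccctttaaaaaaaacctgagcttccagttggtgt
Isg15, chr4:156200819-156200938, minus strand: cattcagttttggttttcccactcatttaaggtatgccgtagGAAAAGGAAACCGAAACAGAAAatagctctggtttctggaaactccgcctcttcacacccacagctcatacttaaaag
Tgtp2, chr11:49064213-49064332, minus strand: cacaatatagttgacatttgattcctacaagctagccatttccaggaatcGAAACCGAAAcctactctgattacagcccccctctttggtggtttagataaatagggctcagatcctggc
Gbp5, chr3:142496814-142496933, plus strand: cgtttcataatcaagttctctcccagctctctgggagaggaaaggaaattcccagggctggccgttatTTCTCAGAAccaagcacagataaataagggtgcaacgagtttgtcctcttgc
Cdk1, chr10:69352913-69353032, minus strand: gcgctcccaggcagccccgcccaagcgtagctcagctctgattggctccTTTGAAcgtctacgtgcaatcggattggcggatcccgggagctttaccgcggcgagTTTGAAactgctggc
Cdc20, chr4:118437344-118437463, minus strand: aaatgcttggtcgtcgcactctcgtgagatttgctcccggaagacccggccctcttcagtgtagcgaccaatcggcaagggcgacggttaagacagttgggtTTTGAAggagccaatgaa
Tgtp2, an interferon-inducible GTPase, rose by 1.59 ± 0.16 and Gbp5, a guanylate-binding protein, by 1.25 ± 0.18; Cdk1 and Cdc20 fell and are described below.

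In the 250 bases before the start, searched on both strands, 13 of the 30 type I interferon genes with a promoter entry held an ISRE match (43.3%), against 3.46% of all 27025 genes with an entry. In the last 100 bases it was 7 genes (23.3%) against 1.14%. Of the 10 interferon-gamma GTPases with an entry 9 held an ISRE match and 6 a GAS match, and GAS matches were in 8.13% of all genes. Within members, 1 ISRE match overlapped a GAS match and 1 GAS match overlapped a CHR match. A match describes letters in the window and is not evidence of binding.

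Genes of antigen presentation by major histocompatibility class I, which interferons induce, were higher in 13 of 20, with a median of 0.67. B2m, the light chain of class I molecules, rose from 9056, 14155 and 22429 to 21585, 24154 and 25935 (0.71 ± 0.11). The non-classical class I genes H2-T24 and H2-Q6 rose by 1.67 ± 0.23 and 1.10 ± 0.13; these are close paralogs whose reads may be shared. Class II presentation was mixed: 2 of 12 were higher and 1 lower, and Cd74, the invariant chain, was at 10526, 21433 and 27469 and 8000, 16048 and 27458 (-0.41 ± 0.21, adjusted p = 0.13). Ctss, a lysosomal protease of macrophages counted in that list, did rise, by 1.88 ± 0.16.

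Myeloid genes separated by kind. Of 18 pan-macrophage and monocyte markers 16 were higher and 0 lower, with a median of 1.05. Of 18 genes of resident dermal macrophages 13 were lower and 0 higher, with a median of -1.08. The mean level of the first list was higher, and that of the second lower, in each of the 10 4-week mice than in any saline mouse. Ly6c2, the antigen of inflammatory monocytes, went from 20.3, 33.2 and 62.9 to 377, 876 and 1291 (4.40 ± 0.22, adjusted p = 7.1e-20). Fcgr1, the high-affinity receptor for IgG, rose from 58.2, 109 and 137 to 398, 676 and 1051 and Plac8, another monocyte gene, from 76.3, 145 and 420.5 to 481, 748 and 1075. Adgre1, which encodes the macrophage antigen F4/80, rose by 1.10 ± 0.17, with groups that overlapped, and Lyz2, lysozyme, by 0.74 ± 0.14. The mean log2 level of the monocyte and macrophage list was 8.11, 8.70 and 9.15 with saline and 9.63, 9.97 and 10.7 at 4 weeks. It moved with the interferon genes, and its part in the interferon result was not tested.

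The resident genes that fell include scavenger and lectin receptors. Cd163, the haemoglobin scavenger receptor, went from 478, 962 and 1828 to 189, 285 and 451 (-1.70 ± 0.21, adjusted p = 1.4e-08). Cd209e, a C-type lectin, was lower by -2.39 ± 0.19, Timd4, a receptor for phosphatidylserine, by -2.60 ± 0.33, and Ccl24, an eosinophil chemokine, by -2.59 ± 0.33, each without overlap. Mrc1, the mannose receptor, with the highest mean count of the list over the 44 mice though below Retnla with saline, was at 911, 1937 and 2733 and 1666, 2173 and 2915 (0.24 ± 0.14, adjusted p = 0.19), and Lyve1, which also marks lymphatic vessels, differed by 0.32 ± 0.20. So the list did not move as one. Lipid-handling genes of scar macrophages were higher in 8 of 18 and lower in 3. The 3 lower were Lpl (-0.85 ± 0.09), Fabp4 (-0.79 ± 0.13) and Fabp5 (-0.67 ± 0.18). Lpl and Fabp4 are also counted among the adipocyte genes below. Trem2, a lipid receptor, rose from 24.5, 42.1 and 76.0 to 302, 359 and 465 (3.04 ± 0.18, adjusted p = 4e-18) and Atp6v0d2, a proton pump subunit, by 1.75 ± 0.28, while Apoe, already high in saline skin, differed by 0.11 ± 0.13. Alternative activation genes went both ways, 4 of 12 higher and 3 lower, with Chil3 and Ccl17 up and Retnla and Ear2 down.

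**Figure D4:**
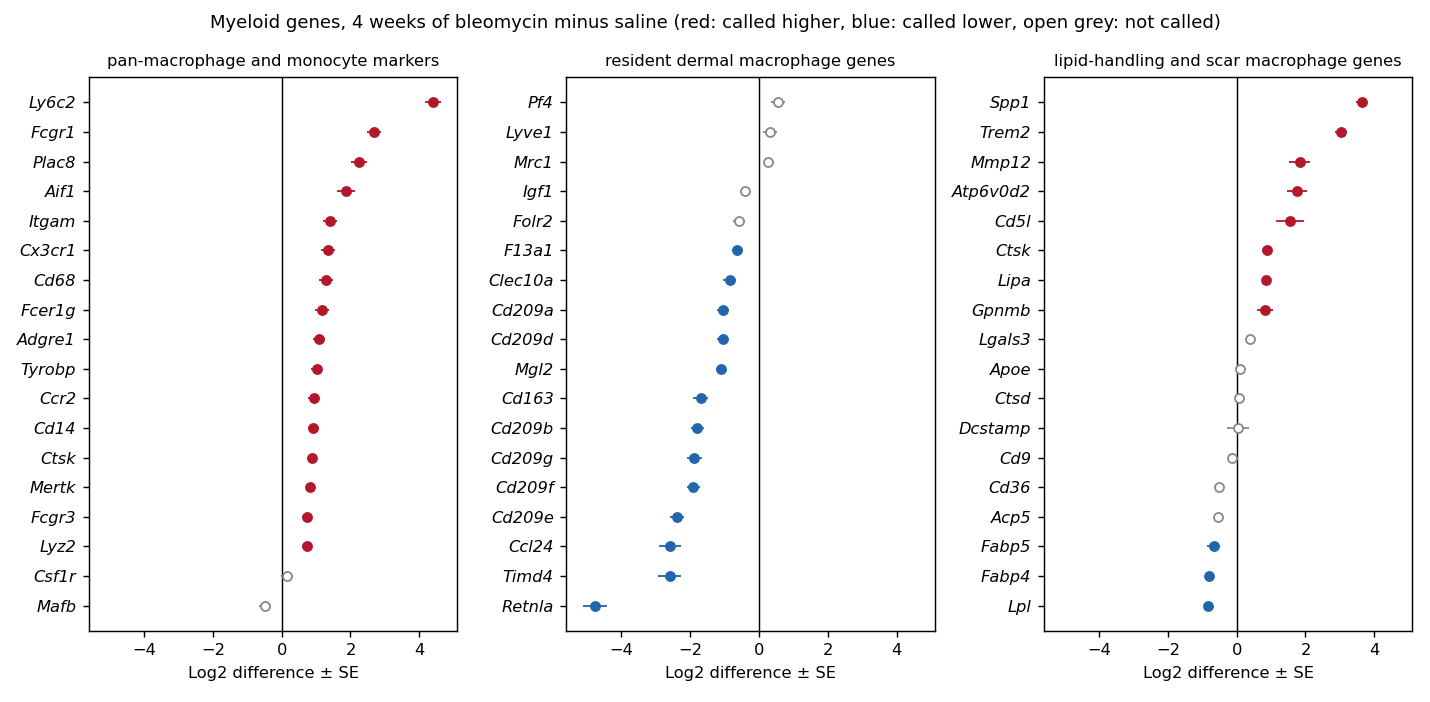
Log2 differences with standard errors (4 weeks minus saline) for the tested members of 3 myeloid lists, 18 genes each. Pan-macrophage and monocyte markers lie mostly to the right of 0, resident dermal macrophage genes mostly to the left, and scar macrophage genes on both sides; filled points were called.

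Chemokines, which attract leukocytes, rose more often than they fell. Of 20 CC chemokines 9 were higher and 1 lower (2 with edgeR or DESeq2, and without saline mouse 1 or 10 or 4-week mouse 1), and of 15 CXC chemokines 9 were higher and 3 lower. The monocyte attractant Ccl2 rose from 45.1, 106 and 161 to 484, 574 and 820.5 (2.69 ± 0.17, adjusted p = 4.7e-17), and Ccl3 and Ccl4 by 3.43 ± 0.32 and 2.99 ± 0.32. Neutrophil attractants started near 0: Cxcl2 was at 0, 3.0 and 6.85 with saline and 12.4, 63.9 and 124 at 4 weeks, Cxcl3 rose by 3.44 ± 0.49 and Cxcl5 by 3.19 ± 0.42. In contrast the constitutive chemokines Cxcl12 and Cxcl14, made by fibroblasts and epithelium, were lower by -0.78 ± 0.11 and -1.70 ± 0.13, with no overlap between groups.

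Neutrophil markers rose in 9 of 14 and fell in 0, with a median of 1.91, and acute-phase genes and alarmins in 13 of 20, with 0 lower. Another 5 of the 19 matched neutrophil markers had a mean of 3 or less and were not tested. That filter is over all 44 mice, so markers near 0 with saline were tested only where other groups were higher. Hdc is also counted as a mast cell marker. S100a9, a calcium-binding alarmin of neutrophils, rose from 2.58, 11.1 and 33.9 to 66.8, 160.1 and 449.6 (3.91 ± 0.48, adjusted p = 9e-09). Lcn2, an iron-scavenging lipocalin, rose from 11.9, 24.1 and 34.7 to 107, 315 and 574 and Hp, haptoglobin, from 1492, 2051 and 3984 to 4628, 7210 and 10271. Saa3 and Saa1 were lower at 4 weeks than at 2 weeks of bleomycin, by -2.03 ± 0.58 (adjusted p = 0.029) and -2.36 ± 0.53 (adjusted p = 0.0053), although both were above saline. Complement genes were higher in 9 of 20 and lower in 1: C3ar1, a receptor for a complement fragment on myeloid cells, rose by 2.17 ± 0.16 and Cfb, factor B, by 1.69 ± 0.20, while C6, of the membrane attack complex, was lower by -1.51 ± 0.26.

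Mast cell markers were higher in 14 of 15, with a median of 1.27, and no overlap in 9. Cma1, mast cell chymase, rose from 354, 521 and 724 to 1170, 1620 and 1871 (1.59 ± 0.12, adjusted p = 4.8e-14), Cpa3, the mast cell carboxypeptidase, by 1.22 ± 0.12, and Mcpt4, another chymase, by 1.23 ± 0.14. Fcer1a, the alpha chain of the IgE receptor, rose from 0, 7.17 and 13.3 to 60.9, 117 and 134 (3.97 ± 0.30). Mcpt8, a marker of basophils, was at 0, 0 and 4.85 with saline and 1.96, 13.8 and 31.1 at 4 weeks.

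Of the lymphoid markers, T and NK cell markers were higher in 11 of 29 and lower in 0, but the pan-T-cell gene Cd3e was at 35.8, 101 and 154 and 77.8, 95.8 and 124 (0.07 ± 0.18, adjusted p = 0.79) and Cd8a differed by -0.06 ± 0.37. The members with the largest rises were Gzmb, granzyme B, from 2.29, 8.37 and 12.1 to 20.3, 46.3 and 86.1, Gzma by 1.68 ± 0.33, the NK receptor Klrb1c by 1.56 ± 0.32, and Foxp3, the factor of regulatory T cells, from 13.1, 24.2 and 44.6 to 31.3, 86.5 and 200.5 (1.59 ± 0.30). The Foxp3 locus overlaps Ccdc22 and other genes on the opposite strand, so its count depends on how strand was used. Against 2 weeks of bleomycin, Cd8a was lower at 4 weeks by -1.33 ± 0.37 (adjusted p = 0.025) and Gzma by -1.37 ± 0.33 (adjusted p = 0.0091). B and plasma cell markers were higher in 7 of 18 and lower in 5. The immunoglobulin genes Igha, Igkc and Jchain rose by 2.09 ± 0.48, 2.34 ± 0.56 and 2.31 ± 0.51, with wide and overlapping ranges. Of the dendritic cell markers 2 of 11 were higher and 3 lower, and 5 were lower without saline mouse 1. Ccr7, the receptor of migrating dendritic cells, rose by 1.97 ± 0.23 and Xcr1, of the conventional type that takes up dead cells, was lower by -1.23 ± 0.23.

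Bleomycin damages DNA, and p53 is the factor that answers such damage by halting or killing cells. Its target genes were higher in 17 of 30 and lower in 1 (0 without saline mouse 1), with a median of 0.67, and the mean level of the list was higher in each 4-week mouse than in any saline mouse. Cdkn1a, which encodes the cell cycle inhibitor p21, rose from 2754, 3158 and 3918 to 5306, 5811 and 6033 (0.83 ± 0.06, adjusted p = 7.1e-16). The death-related genes Pmaip1, Tnfrsf10b and Eda2r rose by 1.5 ± 0.13, 1.33 ± 0.10 and 1.64 ± 0.20, and the abundant epidermal target Perp differed by -0.02 ± 0.09. Against 2 weeks of bleomycin none of the 30 was called in either direction, where 2.35% of all genes were. At 6 weeks of recovery 11 were lower than at 4 weeks and none higher, where 7.14% of all genes were lower. Cdkn2a, which encodes the inhibitor p16 and the p53 activator ARF and marks senescent cells, followed another course. It was at 0, 1.25 and 4.74 with saline and 11, 19.8 and 39.3 at 4 weeks (3.21 ± 0.31, adjusted p = 1.6e-11), above the 2-week mice by 1.84 ± 0.31 (adjusted p = 0.00032). After 6 weeks of recovery it was higher still, at 82.5, 113 and 194, a difference of 2.57 ± 0.35 from 4 weeks (adjusted p = 3.5e-07), and after 10 weeks it was at 51.7, 92.5 and 130. The recovery mice were older at harvest, so age and recovery cannot be told apart here.

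Genes of mitosis were lower throughout. All 33 tested were called lower at 4 weeks, with log2 differences between -1.175 and -0.6034, although the groups overlapped in all but 2 of them, and 30 were called without saline mouse 1. Top2a, which untangles chromosomes, was at 597, 931 and 2368 with saline and 297, 485 and 855 at 4 weeks (-0.98 ± 0.18, adjusted p = 2.7e-05). Cdk1, the kinase of mitotic entry, was lower by -0.90 ± 0.21, its partner Ccnb1 by -1.17 ± 0.19, Cdc20, which activates the exit from mitosis, by -1.11 ± 0.20, and Ube2c by -1.14 ± 0.19. DNA replication genes did not match this: 1 of 32 was called lower and 0 higher, and Pcna, the clamp of DNA polymerase, was at 924, 1051 and 1777 and 948, 1003 and 1213 (-0.17 ± 0.09, adjusted p = 0.14). The replication gene called was Uhrf1 (-0.71 ± 0.18). CHR matches were found before 10 of the 28 mitosis genes with a promoter entry (35.7%), against 19.6% of all genes, and before 5 of the 10 interferon-gamma GTPases and 7 of the 30 type I interferon genes; before the mitosis genes an ISRE match was found before 1 and a GAS match before none.

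Hair keratins had the lowest medians of the 49 lists and the widest spread among saline mice. Inner root sheath genes were lower in 12 of 13, with a median of -6.47, and hair shaft keratins in 13 of 13, with a median of -6.23. Krt25, a keratin of the inner root sheath of growing follicles, was at 513, 10024 and 54378 with saline and 1.57, 6.28 and 1233 at 4 weeks (-8.34 ± 1.25, adjusted p = 6.6e-07). Krt71 fell by -8.07 ± 1.15 and the shaft keratins Krt81 and Krt35 by -7.91 ± 1.23 and -7.13 ± 0.96. The groups overlapped for every shaft keratin and for all but 1 inner root sheath gene. Mean log2 levels of the inner root sheath list were 6.77, 10.6 and 13.1 with saline, and saline mice 2 and 6 were lowest, at 6.77 and 6.87. At 4 weeks the levels were 2.60, 3.26 and 8.02, and mice 3 and 8 were highest, at 8.02 and 6.91. Hair growth in mouse skin comes in waves, and the stage of the follicles at harvest is not given in the sources used here, so stage and treatment cannot be told apart.

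**Figure D5:**
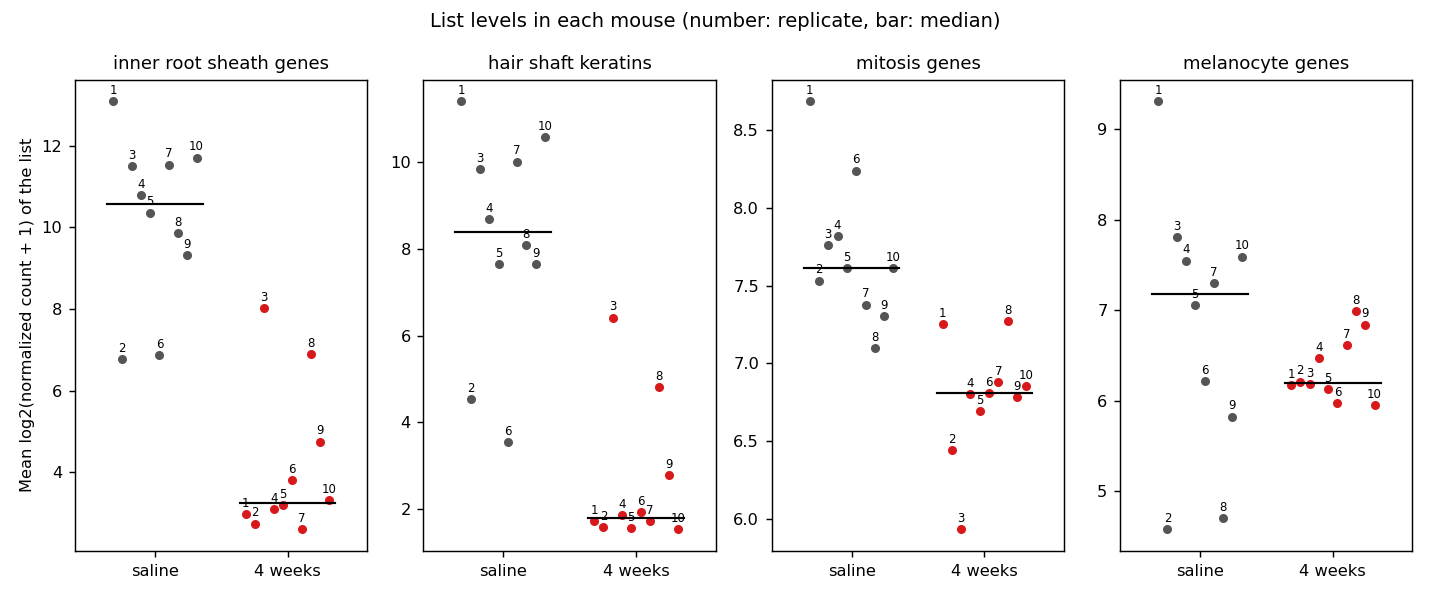
Mean log2(normalized count + 1) over the members of 4 lists in each of the 10 saline mice and 10 4-week mice, with replicate numbers beside the points and a bar at each median. Inner root sheath and hair shaft levels spread widely among saline mice and overlap with 2 of the 4-week mice, mitosis levels are lower in 8 of the 10 4-week mice than in any saline mouse, and melanocyte levels overlap.

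Saline mouse 1 was highest of its group for both the inner root sheath (13.1) and the mitosis list (8.69). The mitosis level of saline mice 2 and 6, whose hair genes were lowest, was 7.53 and 8.24, and that of the 4-week mice 3 and 8 was 5.93 and 7.27. Both lists were lower at 4 weeks, and the part of growing follicles in the mitosis result was not tested. Regulators of the follicle were lower in 13 of 21 and higher in 2. Dlx3, a transcription factor of the hair matrix, fell from 317, 923 and 4871 to 171, 188 and 307, by -2.18 ± 0.36, without overlap, Msx1 by -2.33 ± 0.32 and Hoxc13, which drives hair keratins, by -2.10 ± 0.37. Shh, the signal of the growing hair bulb, was at 5.71, 38.1 and 186 and 1.07, 3.71 and 19.7 (-2.5 ± 0.62). Krt15, known from the bulge, where follicle stem cells rest, was at 14640, 21914 and 27330 and 18846, 25486 and 44534 (0.30 ± 0.13, adjusted p = 0.077). Melanocyte genes were lower in 0 of 13 and higher in 1, and their median of -0.65 was -0.25 without saline mouse 1. The higher member was Sox10, which is also counted among the Schwann cell genes below. With edgeR and with DESeq2 on the recovered reads 7 of them were lower. The pigment genes Tyrp1 and Dct were at 61.7, 505 and 2546 and 144, 746 and 4139 with saline and at 261, 362 and 518 and 538, 724 and 1102 at 4 weeks, a narrower range within that of saline.

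Sebaceous gland genes fell together, with 14 of 19 lower and 0 higher, a median of -1.14, and a list level lower in each 4-week mouse than in any saline mouse. Scd3, a desaturase of sebocytes, went from 949, 3038 and 3330 to 448, 709 and 911 (-1.92 ± 0.21, adjusted p = 6.3e-10). Awat2, a wax synthase, was lower by -1.41 ± 0.20, Mc5r, the melanocortin receptor of the gland, by -1.34 ± 0.28, and Scd1, shared with fat, by -1.14 ± 0.22. Cyp2g1 was also lower than at 2 weeks of bleomycin, by -2.16 ± 0.44 (adjusted p = 0.0023). At 6 weeks of recovery 13 of the 19 were higher than at 4 weeks, where 4.8% of all genes were.

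The main keratins of the epidermis between follicles did not pass the test. Krt5 and Krt14, the keratins of the basal layer, differed by 0.19 ± 0.10 (adjusted p = 0.14) and 0.16 ± 0.14 (adjusted p = 0.4), and Lor, loricrin, the chief protein of the cornified envelope, by -0.14 ± 0.18 (adjusted p = 0.58). Of 15 epidermal keratins 3 were higher and 3 lower. Krt6b and Krt16, which appear in wounded or hyperproliferative epidermis, rose from 9.13, 33.9 and 274 to 314, 966 and 9298 and from 341, 491 and 2101 to 604, 1735 and 6873. Of 24 cornified envelope genes 4 were higher and 5 lower; the small proline-rich protein Sprr2d rose by 2.10 ± 0.57, and its family has near-identical copies.

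In fat, 15 of 24 adipocyte genes were lower and 0 higher, with a median of -0.75. Lep, the hormone leptin, went from 268, 480.3 and 653 to 103, 144 and 228 (-1.68 ± 0.28, adjusted p = 5.8e-06), Adrb3, the adrenergic receptor of adipocytes, from 218, 353 and 516 to 77.5, 115 and 155 (-1.62 ± 0.17), and Thrsp, a regulator of lipid synthesis, by -1.62 ± 0.28. Adipoq, adiponectin, the defining product of fat cells, was at 1060, 2198 and 2508 and 1430, 1846 and 2120 (-0.17 ± 0.16, adjusted p = 0.41), and Cfd, adipsin, differed by -0.47 ± 0.17, short of the fold criterion.

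In skeletal muscle, Acta1, the main actin of muscle, was at 25163, 57945 and 79598 and 31264, 59222 and 85546 (0.00 ± 0.19, adjusted p = 0.99). Of 27 muscle genes 11 were higher and 1 lower, and the largest rises included slow-fibre troponins: Tnni1 rose from 2.29, 15.9 and 38.1 to 126, 185 and 547 (4.0 ± 0.44, adjusted p = 6.9e-10) and Tnnt1 by 2.76 ± 0.36. Tnnc1 rose from 0, 10.2 and 37.6 to 161, 218 and 643, and its locus overlaps Nisch on the opposite strand, so its count depends on how strand was used. Pvalb, the calcium buffer of fast fibres, was lower by -0.91 ± 0.21. Of 20 genes of muscle regeneration and denervation 15 were higher and 0 lower, with a median of 1.64. Myh8, the perinatal myosin heavy chain, rose from 48.9, 126 and 199.5 to 656, 1645 and 5270 (3.90 ± 0.35, adjusted p = 3.5e-12), and Actc1, cardiac actin, which is also made in developing muscle, from 33.1, 87.2 and 127 to 556, 1016 and 2941. Chrng, the fetal subunit of the acetylcholine receptor, rose from 0, 3.52 and 11.8 to 32.9, 70.2 and 154 and Mymk, which fuses myoblasts, from 1.14, 5.38 and 19.5 to 73.3, 141 and 339.6. Pax7, the marker of satellite cells, and Myog, the factor of their differentiation, rose by 2.11 ± 0.32 and 3.09 ± 0.28. None of these 6 genes overlapped between groups. Myh8 and Actc1 were also higher than at 2 weeks of bleomycin, by 1.67 ± 0.35 (adjusted p = 0.0032) and 1.28 ± 0.37 (adjusted p = 0.031).

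Blood endothelial genes were higher in 7 of 24 and lower in 0 (1 without saline mouse 1), with a median of 0.48, and 11 were higher without 4-week mouse 3. Pecam1, CD31, went from 459, 772 and 904 to 1021, 1221 and 1447 (0.74 ± 0.13, adjusted p = 1.2e-05). Selp and Sele, the selectins that slow leukocytes on activated endothelium, rose by 2.12 ± 0.19 and 1.23 ± 0.25, and Apln, a peptide of sprouting vessels, by 1.40 ± 0.22. Lymphatic endothelial genes were higher in 6 of 12 and lower in 1: Prox1, the factor that sets lymphatic identity, rose from 23.9, 49.2 and 62.9 to 70.9, 85.7 and 110 (0.93 ± 0.16). Of 11 mural cell markers 3 were higher and 1 lower. Mcam, CD146, rose from 666, 832 and 1069 to 1414, 1778 and 1995 (1.09 ± 0.07), and Ndufa4l2 was lower by -1.23 ± 0.17.

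Schwann cell genes, of the glia around peripheral nerves, were higher in 14 of 19 and lower in 0, with a median of 0.69, and 10 were higher without saline mouse 1. Cdh19, a Schwann cell cadherin, rose from 46.5, 112 and 165 to 199, 274 and 336 (1.35 ± 0.21, adjusted p = 1.8e-06), and Gfap, of non-myelinating Schwann cells, by 1.91 ± 0.44. Sox10, the factor of the neural crest lineage, was higher by 0.69 ± 0.15 than with saline and by 0.63 ± 0.15 than at 2 weeks of bleomycin (adjusted p = 0.0096).

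Of 6 genes the study named with regard to the alignment of collagen bundles, 5 belong to a signature found in these mice, so their direction is not independent evidence, and Arhgdib came from fibroblasts cultured on aligned fibres and was followed up partly for its level in this model. Of the 6, 3 passed both criteria. Gfra3, a receptor of the glial-derived neurotrophic factor family, was at 36.5, 71.2 and 107 with saline and 96.8, 165 and 195 at 4 weeks (1.13 ± 0.19, adjusted p = 4.7e-06). Emcn, an endothelial sialomucin, rose from 78.7, 100.1 and 158 to 168, 187 and 269.8 (0.90 ± 0.11) and Sparcl1, a matricellular relative of Sparc, from 698, 1863 and 2536 to 2826, 3178 and 3672 (0.85 ± 0.16). Arhgdib, an inhibitor of small GTPases in leukocytes and other cells, was at 686, 1093 and 1669 and 1333, 1585 and 2004, and its difference of 0.51 ± 0.14 (adjusted p = 0.0043) was short of the fold criterion, as were those of the endothelial genes Esam (0.54 ± 0.16) and Robo4 (0.56 ± 0.16). Without 4-week mouse 3, 5 of the 6 passed. The study pooled genes that met its criteria in any group against saline, not at 4 weeks alone. Against saline, Arhgdib was called higher at 2 weeks of bleomycin (log2 difference 0.76) and Esam at 6 weeks of recovery (0.74).

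Enzymes of oxidative defence, relevant since bleomycin acts through oxygen radicals, were called about as often as all genes. Of 25, 2 were higher and 2 lower, which is 16% against 17.9% of all genes. Nqo1, a quinone reductase, rose from 117, 154 and 179 to 268, 314 and 367 (0.99 ± 0.09, adjusted p = 1.3e-12), and the extracellular enzymes Gpx3 and Sod3 were lower by -1.16 ± 0.15 and -0.80 ± 0.18. Cyp1a1, an oxidase induced by the aryl hydrocarbon receptor, stood out against 2 weeks of bleomycin: it was at 98.6, 126 and 173 then and at 157, 1308 and 1897 at 4 weeks, a difference of 2.97 ± 0.26 (adjusted p = 5.5e-11), and one 4-week mouse stayed within the saline range of 141, 339 and 429.

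Across all genes the 4-week mice were close to the 2-week mice, with 400 genes called (2.35%), 253 higher and 147 lower (0.863%), against 3053 for the comparison with saline. Besides the collagens, the higher genes included Lox (0.85 ± 0.13), Mmp12 (1.82 ± 0.31), Trem2 (0.67 ± 0.18) and Spp1 (0.81 ± 0.16), and the lower ones Ly6c2 (-1.72 ± 0.22), Plac8 (-1.21 ± 0.23) and Chil3 (-1.23 ± 0.34). Of the scar macrophage list 7 of 18 were higher and 0 lower, and of the pan-macrophage and monocyte list 1 of 18 was higher and 3 were lower. Type I interferon genes had 0 of 41 higher and 1 lower in this comparison, interferon-gamma GTPases 0 of 18 higher and 4 lower with a median of -0.53, and p53 targets 0 in either direction. Both comparisons hold the 4-week mice, so they are not independent of each other.

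After 6 weeks of recovery 2035 genes differed from 4 weeks (11.9%), 818 higher (4.8%) and 1217 lower (7.14%). Of the lists high at 4 weeks, 39 of 41 type I interferon genes, 18 of 18 interferon-gamma GTPases, 15 of 18 pan-macrophage and monocyte markers and 10 of 15 mast cell markers were lower after recovery. Saa3 was lower by -5.84 ± 0.67 (adjusted p = 5.1e-09) and Ly6c2 by -4.71 ± 0.26 (adjusted p = 1.3e-17). Of the lists low at 4 weeks, 11 of 20 fibroblast markers, 14 of 24 adipocyte genes and 11 of 13 inner root sheath genes were higher; Pi16 rose by 2.97 ± 0.27 (adjusted p = 1.2e-11) and Col14a1 by 2.24 ± 0.24, to a median of 1880 against 885 with saline. Of the 18 resident dermal macrophage genes, also mostly low at 4 weeks, 4 were higher and 2 lower, with a median of -0.02. Pdgfra was not called in this comparison (0.06 ± 0.14, adjusted p = 0.8), nor was Cd163 (-0.05 ± 0.25, adjusted p = 0.91), and none of the 33 mitosis genes or 19 Schwann cell genes was called. The 4-week mice enter this comparison too, so it is not independent of the one with saline. By design the recovery mice were also older than the 4-week mice. Age and the end of injections therefore cannot be told apart in any comparison with recovery given here.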

How the data were processed

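RNA of back skin was sequenced by the study from 44 mice in 5 groups, read from the labels, and the 10 saline and 10 4-week mice were compared. The authors aligned reads with STAR 2.4.0 to mm10 and scaled them with DESeq2 1.12.3, per the labels, and deposited 1 table of read counts divided by size factors, a signal that is not whole. The counting tool, its annotation and its use of strand are not given in the sources used here. Several named genes overlap a gene on the opposite strand, among them Tnnc1, Foxp3, Irf7, Cdc20 and H2-T24, and their counts depend on that use. Whole reads were recovered for 100.0% of values (tolerance 0.01), and no column was left unassigned. Of 43411 gene IDs, 42929 (98.9%) matched a symbol in GENCODE M21 (GRCm38), and 14600 were at 0 in every mouse.

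Values were tested as log2(normalized count + 1) with limma 3.58.1 (R 4.3.3, mean-variance trend, empirical Bayes), fitted to all 44 mice so that the groups shared 1 estimate of spread, over the 17037 genes with a mean above 3. Among genes near 0 with saline, this filter favours those that are higher in other groups. A gene was called at an absolute fold change above 1.5 (log2 0.585) and a Benjamini-Hochberg adjusted p below 0.05, and p-values measure the spread between mice. edgeR 4.0.16 and DESeq2 1.42.0 were run on the recovered reads. On simulated counts for the comparison of 10 against 10 mice (16595 genes), limma recovered 100% of 4-fold and 96% of 2.5-fold changes and called 2 unchanged genes. The simulation changed 100 genes at each fold, none of them at low counts, and gave both groups the spread of saline. Its figures are therefore not error rates for genes at low counts or for the fit to 44 mice. Other filters, scalings, thresholds and sets of mice were tried, and thinning of reads was chosen after seeing the data.

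Named were, in each list, up to 4 called genes with the largest change and the member with the highest mean, the 10 largest rises and falls among called genes without overlap, genes the study names, and defining markers. Tagln, Tgtp2, Isg15, Ccn1, Col1a1, Pvalb, Cyp1a1, Serpine2, Col1a2, Myog, Gbp5, Fst, Cxcl14, Cdk1, Ly6a and Tgfb1 fall outside this rule and were chosen after their values were seen. So do Lpl, Fabp4 and Fabp5, which are not counted among the named genes below. The comparison and the lists were chosen with earlier results of these data known. List entries with no match in the table were not analysed here, and a few genes that the rule named are not reported here. Promoters are from RefSeq (GRCm38.p6), which held entries for 30 of 41 type I interferon genes, 10 of 18 interferon-gamma GTPases and 28 of 33 mitosis genes.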

Additional observations from a re-analysis of the deposited data

Results flagged for a closer look

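In each group of 10 mice, the gap between the highest or lowest mouse and the nearest other mouse was set against the range of the group, for the named genes and the list levels, and a gap above Dixon's 95% critical value was taken as a mouse far from the others. Chance gives this in about 1 in 20 groups, and it was seen in 63 of 514. Of these 63, 39 were saline mouse 1 and 12 were 4-week mouse 3, so 2 mice account for most of them.

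Saline mouse 1 was lowest of the saline mice in normalized counts of matrix and fibroblast genes: Dcn 12401, Dpt 2690, Gsn 17671, Pdgfra 856, Pi16 1887, Pcolce2 419, Ltbp2 136, Sod3 385, Sparcl1 698, Synpo2 572, Tgfbr2 1462 and Fst 302. It was lowest for the immune genes Adgre1 (384), Cd74 (10526), Xcr1 (19.1), H2-Q6 (174), Irgm1 (150), Gbp5 (34.6), Lcn2 (11.9) and Selp (16.7). It was also lowest for Acta1 (25163), Adipoq (1060), Akr1c18 (670), Awat2 (385), Scd3 (949) and Cyp1a1 (141). It was highest for Tagln (1947), Tnfrsf10b (93), Top2a (2368) and Wnt5a (1143). Its mean log2 levels were lowest for small leucine-rich proteoglycans (8.57), fibroblast markers (9.90), interferon-gamma GTPases (6.01), major histocompatibility class I (9.62) and class II (8.47), dendritic cell markers (5.87), sebaceous genes (10.21), adipocyte genes (10.13) and mural markers (7.75). Saline mouse 2 was lowest for Acta2 (1656) and Sox10 (84.5) and highest for Acod1 (6.85).

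At 4 weeks, mouse 3 was lowest for the collagens Col1a1 (16440), Col1a2 (19826), Col3a1 (17991) and Col14a1 (204), and for Sparc (11088), Mfap4 (411), Ndufa4l2 (286), Atp6v0d2 (41.1) and Klrb1c (13.7). Its level of matrix proteases and inhibitors was lowest too (7.91), and it was highest for Emcn (270) and for Bambi (98.7). Without it the log2 difference of Col1a1 from saline was 0.44 (adjusted p = 0.13 in limma) instead of 0.30. Mouse 4 was highest for Cxcl3 (161) and the level of CXC chemokines (7.25), and mouse 1 was highest for Pcna (1213) and lowest for Timd4 (0). Mouse 10 was lowest for Cyp1a1 (157), mouse 6 for Pmaip1 (203) and mouse 9 for Thrsp (168), while mouse 8 was highest for Dlx3 (307) and mouse 5 for the level of small leucine-rich proteoglycans (9.74).

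For 43 of the named genes the 4-week and 2-week mice differed in limma. The saline mice cancel in the log2 difference but enter the shared estimate of spread, and so the adjusted p. With only the groups compared, 317 instead of 400 of all genes were called. Named genes were largely picked by their difference from saline, so the 43 are not independent of that comparison. Values are log2 differences, 4 minus 2 weeks. Matrix genes and secreted regulators were higher at 4 weeks: Col1a1 1.01, Col1a2 0.93, Col12a1 1.26, Col24a1 0.89, Col28a1 0.71, Col8a1 1.17, Lox 0.85, Ltbp2 0.92, Itga11 1.14, Mmp12 1.82, Mmp8 1.13, Spp1 0.81, Ccn1 0.60 and Nog 0.82. Col1a1 was 0.71 below saline at 2 weeks and 0.30 above it at 4 weeks on this scale, and Itga11 was below saline at both times, by 1.83 and then 0.70. Muscle genes were higher too (Actc1 1.28, Myh8 1.67 and Tnnt1 1.16), as were the Schwann cell genes Cdh19 (0.67), Gfra3 (0.87) and Sox10 (0.63). The other higher genes were Apln 0.86, Atp6v0d2 1.19, Ccl17 1.22, Cdkn2a 1.84, Cxcl3 1.61, Jchain 1.94, Trem2 0.67 and Cyp1a1 2.97.

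Monocyte and acute-phase genes were lower at 4 than at 2 weeks: Chil3 -1.23, Ly6c2 -1.72, Plac8 -1.21, Saa1 -2.36 and Saa3 -2.03. So were Gbp10 (-1.39), H2-T24 (-0.79) and Ifi27l2a (-0.82) of the interferon and class I lists, the lymphocyte genes Cd8a (-1.33) and Gzma (-1.37), and Gm4841 (-1.83) and Ly6a (-0.59). Akr1c18 (-1.41), Cyp2g1 (-2.16) and Ube2c (-0.65) were lower as well. Cyp1a1 lay below saline at 2 weeks, by 1.23, and above it at 4 weeks, by 1.74.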

How the results depend on the processing

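No call of the 208 named genes changed direction under any alternative run. The count for 4 weeks against saline, 3053, was between 2718 and 3485 under the other filters, scalings, tests and pseudocount and with a log2 threshold of 0.5, 3136 with edgeR, 3085 with DESeq2, 2885 without saline mouse 1 and 2-week mouse 2 together, and between 2831 and 3103 leaving out 1 mouse. With no fold threshold it was 6242. The counts against 2 weeks (400) and for 6 weeks of recovery (2035) were 310 to 486 and 1874 to 2072 leaving out 1 mouse, 317 and 2296 with only the groups compared, and 956 and 4260 with no fold threshold. The 897 genes called without overlap between groups were 906 to 1019 leaving out 1 mouse, and the 479 list genes called 463 to 485. The 13 interferon promoters with an ISRE match became 7 with 100 bases. The call of Synpo2 was lost as given above, and Robo4, Esam, Arhgdib and Dcn were gained under some settings. The cause was not tested. Lower skeletal muscle genes went from 1 to 2 without saline mouse 1 and 2-week mouse 2 together. Of 98 list counts, 31 moved by more than 1.5 times with no fold threshold and at most 8 under any other setting: under the filter of 10 counts in 10 mice the higher B and plasma cell markers went from 7 to 4 and the higher cornified envelope genes from 4 to 2, and at a log2 threshold of 0.5 the lower scar macrophage genes went from 3 to 5, the higher endothelial genes from 7 to 11 and the alignment genes from 3 to 6. Replicate numbers name different mice and do not pair them (correlations of deviations for 4 weeks and saline between -0.06 and 0.21). With the number as a replicate block the counts were 3035, 407 and 2096, 898 without overlap and 482 in the lists, and no named call changed. Genes at a few counts are limited by depth.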
